A study of Homo sapiens with 160 samples.

Results

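The genes described here are 10 members of the NF-κB system in BEAS-2B cells: the subunit genes NFKB1, NFKB2 and RELB, the inhibitor genes NFKBIA, NFKBIB, NFKBIE and NFKBIZ, and the genes of the ubiquitin branch TNFAIP3, TNIP1 and BIRC3. They were chosen by symbol, as 10 of the 29273 genes listed, and all 10 were high enough to be tested among 14827 genes. BEAS-2B is an immortalised human bronchial epithelial cell line, so every value comes from 1 line, labelled wild type. The cells received mometasone with indacaterol and carbachol, mometasone with indacaterol, mometasone with carbachol, mometasone, indacaterol with carbachol, indacaterol, carbachol, or vehicle, and RNA was sequenced after 1, 2, 6 and 18 h. Mometasone is an inhaled glucocorticoid, used here at 100 nM, indacaterol is a long-acting β2-adrenoceptor agonist at 100 nM, and carbachol is a muscarinic receptor agonist at 10 µM. All groups, vehicle included, were grown to confluence and then kept without serum overnight, and the labels name no cytokine or other inflammatory stimulus in any group. Of 160 samples in 32 groups, 150 libraries were used, with 5 libraries in 24 groups, 4 in 6 groups and 3 in 2 groups (mometasone and all 3 agents, both at 18 h).

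NF-κB is a family of dimeric transcription factors that are held in the cytoplasm by IκB proteins until the IKK kinases mark the inhibitor for destruction. The freed dimers then switch on genes that include several of their own brakes. NFKBIA, NFKBIB and NFKBIE encode the cytoplasmic inhibitors IκBα, IκBβ and IκBε, and NFKBIZ encodes the nuclear protein IκBζ. TNFAIP3 encodes a ubiquitin-editing enzyme that shuts down signalling upstream of IKK, TNIP1 encodes a partner that binds it, and BIRC3 encodes a ubiquitin ligase of the TNF receptor complex. Glucocorticoids are known to dampen NF-κB signalling in airway epithelium, and NFKBIA is a textbook glucocorticoid-induced inhibitor.

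Values are the authors' normalised signal. Differences are given as log2 changes of (value + 1), with the agent minus without it, with the standard error, and calls are adjusted p-values under 0.05 from limma with Benjamini-Hochberg adjustment over all 14827 genes within a comparison and time. On this scale the change of low genes is understated. A library had 12521 to 13239 genes at 1 or more, and read depth is unknown. Nothing in the labels ties replicates to separate cultures, so each p-value reflects only how these libraries vary, and that variation may be technical. No 2 libraries were identical. Mitochondrial genes took 5.88% to 28.3% of the signal, and the 6 libraries above 20% were all replicate 1. TSC22D3, a direct glucocorticoid receptor target, separated every library with mometasone from every library without it at all 4 times, and NR4A3, which cyclic AMP induces, did so for indacaterol at 1, 2 and 6 h. KRT8, KRT17, KRT18 and CDH1 of 8 airway epithelial markers had medians of 1 or more, and EPCAM and TP63 were below 1 in all libraries. The summed epithelial markers lay between 349 and 2925 (median 1288) with mometasone, against 975.3 to 5921 (median 1607) without it. KRT17 had the highest median (701) and widest range (76.4 to 4951) of these markers, so the sum follows this gene to a large part. Of 5 fibroblast markers 4 had medians of 1 or more, mostly by COL1A1 (median 634), and their sum lay between 276 and 861 (median 580) with mometasone, against 518 to 893 (median 668) without it. No leukocyte marker of 4 reached a median of 1, with sums of 0.84 to 3.89 (median 1.68) with mometasone, against 0.62 to 3.67 (median 1.78) without it, and CD3E was listed at 0 in 149 libraries. No endothelial marker of 3 did either, with sums of 0.10 to 1.76 with mometasone, against 0.11 to 1.78 without it. The part of these marker levels in the results was not tested, and in bulk RNA fewer cells of a type and less RNA per cell cannot be told apart.

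Start-site sequence was available for 8 of the 10 members in 14 RefSeq windows on GRCh38.p14, each from 250 bases before to 50 bases after an annotated start. All 8 had the κB consensus, the sequence NF-κB dimers bind, in at least 1 window (10 of the 14 windows, on either strand), while 11.3% of the 35116 windows of all genes held it. The 4 windows below are those of the members that moved most, shown so that their κB matches can be seen, which are in capitals. They lie at chr14:35404700-35404999 on the minus strand (NFKBIA), chr11:102317234-102317533 on the plus strand (BIRC3), chr6:137867009-137867308 on the plus strand (TNFAIP3) and chr3:101827740-101828039 on the plus strand (NFKBIZ, the first of its windows).
NFKBIA: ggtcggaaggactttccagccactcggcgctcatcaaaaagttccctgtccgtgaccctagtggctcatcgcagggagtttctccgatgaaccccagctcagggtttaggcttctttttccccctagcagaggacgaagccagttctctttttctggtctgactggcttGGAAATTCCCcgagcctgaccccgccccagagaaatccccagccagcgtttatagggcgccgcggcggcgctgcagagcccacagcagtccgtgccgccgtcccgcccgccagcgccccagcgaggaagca
BIRC3: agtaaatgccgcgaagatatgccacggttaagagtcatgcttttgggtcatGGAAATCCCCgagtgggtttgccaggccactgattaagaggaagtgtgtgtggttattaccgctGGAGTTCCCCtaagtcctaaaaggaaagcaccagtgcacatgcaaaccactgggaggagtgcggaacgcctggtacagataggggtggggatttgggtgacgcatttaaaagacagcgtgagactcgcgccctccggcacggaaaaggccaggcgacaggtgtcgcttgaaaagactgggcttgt
TNFAIP3: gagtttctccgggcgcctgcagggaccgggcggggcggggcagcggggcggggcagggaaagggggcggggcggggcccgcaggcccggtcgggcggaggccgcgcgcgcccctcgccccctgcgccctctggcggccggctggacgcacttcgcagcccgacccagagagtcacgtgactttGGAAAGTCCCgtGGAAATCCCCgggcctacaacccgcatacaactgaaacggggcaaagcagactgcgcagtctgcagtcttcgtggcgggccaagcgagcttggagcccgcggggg
NFKBIZ: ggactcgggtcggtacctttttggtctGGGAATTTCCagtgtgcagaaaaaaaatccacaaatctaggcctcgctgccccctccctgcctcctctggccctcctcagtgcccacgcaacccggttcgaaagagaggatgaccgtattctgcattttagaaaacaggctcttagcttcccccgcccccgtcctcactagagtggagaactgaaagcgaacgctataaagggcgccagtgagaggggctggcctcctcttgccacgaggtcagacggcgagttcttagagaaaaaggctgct
The NFKBIA match GGAAATTCCC began 81 bases before the start. BIRC3 had GGAAATCCCC at 199 bases and GGAGTTCCCC at 135 bases before the start, and TNFAIP3 had GGAAAGTCCC at 67 and GGAAATCCCC at 55 bases before it. The NFKBIZ match GGGAATTTCC began 223 bases before the start. The glucocorticoid receptor core motif AGAACA, in 14.8% of all windows, and the cyclic AMP response element TGACGTCA, in 1.85%, both searched on either strand, were in none of the 14 member windows, which says only that these letters are not in these stretches. The shorter TGACG, which TGACGTCA contains, was in 6 of the 14 windows (1 of NFKB1, 2 of NFKB2, 1 of BIRC3 and 2 of NFKBIB) and in 24.6% of all windows. A match is a description of sequence and not a measured site.

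Mometasone was compared with its absence over the 4 backgrounds, which are vehicle, indacaterol, carbachol and indacaterol with carbachol. It changed 4 of the 10 members at 1 h (3 higher, 1 lower), 8 at 2 h (4 higher, 4 lower), 5 at 6 h (3 higher, 2 lower) and 4 at 18 h (2 higher, 2 lower). By the same rule 2.64%, 8.58%, 33% and 31.5% of all tested genes were called, so the members' share stood well above that of all genes at 1 and 2 h and close to it at 6 and 18 h. The members were chosen with earlier results of these data known, so a share above that of all genes is not independent evidence. The median log2 change of the 10 members was -0.08, -0.07, 0.03 and 0.08 at the 4 times, against 0.01, 0.00, 0.02 and 0.05 for all genes. NFKB1 and NFKBIB were called at no time, and the calls on the other members went in both directions.

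NFKBIA, the IκBα gene (ENSG00000100906, GRCh38 chromosome 14, 35401511 to 35404749, minus strand), rose with mometasone at every time. At 1 h it had 102, 139, 141 and 119.8 in the mometasone libraries, against 26.1, 27.0, 31.97, 24.8 and 26.3 in vehicle. At 2 h it had 129, 133, 148, 113 and 127 with mometasone, against 23.8, 24.5, 24.1, 18.5 and 21.5 in vehicle. No mometasone library came near a vehicle library at either time. At 6 h the mean was 89.9 ± 12.0 with mometasone and 20.9 ± 2.90 in vehicle (SD, n = 5 each), and at 18 h it was 68.5 ± 4.72 (n = 3) with mometasone and 22.9 ± 2.13 (n = 4) in vehicle.

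Taken over the backgrounds, the log2 change of NFKBIA was 2.06 ± 0.05 at 1 h, 2.12 ± 0.05 at 2 h, 2.13 ± 0.05 at 6 h and 1.5 ± 0.06 at 18 h (adjusted p 2.23e-65, 1.63e-68, 7.74e-69 and 2.92e-47). These are rises of 4.17-, 4.35-, 4.37- and 2.84-fold. NFKBIA lay between 96.5 and 156 in the 20 libraries with mometasone at 2 h, against 18.1 to 40.8 in the 20 without it, and the ranges were apart at the other 3 times too. The change at 18 h was smaller than at 1 h by a test of that difference, which was chosen after the data were seen, with a log2 difference of -0.55 ± 0.08 (adjusted p 1.11e-08, where 17.4% of all genes were called).

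BIRC3, the ubiquitin ligase gene (ENSG00000023445, chromosome 11, 102317450 to 102339403, plus strand), had the largest log2 change of the 10 members from 2 h on. At 1 h its mometasone libraries were uneven, with 7.12, 36.5, 12.3 and 30.6 in replicates 1 to 4, against 5.32, 8.73, 6.20, 5.24 and 4.61 in vehicle replicates 1 to 5. The lowest mometasone value fell inside the vehicle range. Replicates 2 and 4 were also the highest in the other 3 groups with mometasone at 1 h, at 28.2 to 40.7, while replicates 1, 3 and 5 of those groups lay between 10.8 and 20.2.

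At 2 h BIRC3 had 47.6, 38.4, 48.2, 45.9 and 41.8 in mometasone libraries, against 4.34, 3.85, 4.67, 5.52 and 2.51 in vehicle, and the unevenness of 1 h was gone. At 6 h the mean was 65.7 ± 4.64 with mometasone and 8.07 ± 0.418 in vehicle (SD, n = 5 each). The log2 change of BIRC3 over the 4 backgrounds was 1.47 ± 0.13, 2.81 ± 0.13, 2.88 ± 0.13 and 2.45 ± 0.15 at 1, 2, 6 and 18 h (adjusted p 3.32e-17, 2.61e-40, 6.96e-42 and 9.17e-31). The rise was 7-fold at 2 h and 7.36-fold at 6 h. All 3 later changes exceeded that at 1 h in the same kind of test, by 1.34 ± 0.19 at 2 h (adjusted p 7.98e-08), 1.41 ± 0.19 at 6 h (6.43e-10) and 0.98 ± 0.20 at 18 h (5.23e-05), in tests where 1.25%, 17.4% and 17.4% of all genes were called. Against vehicle alone the 1 h change was 1.46 ± 0.28 (adjusted p 0.000288), and it was not called without replicate 4 (1.17, adjusted p 0.122).

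**Figure D1:**
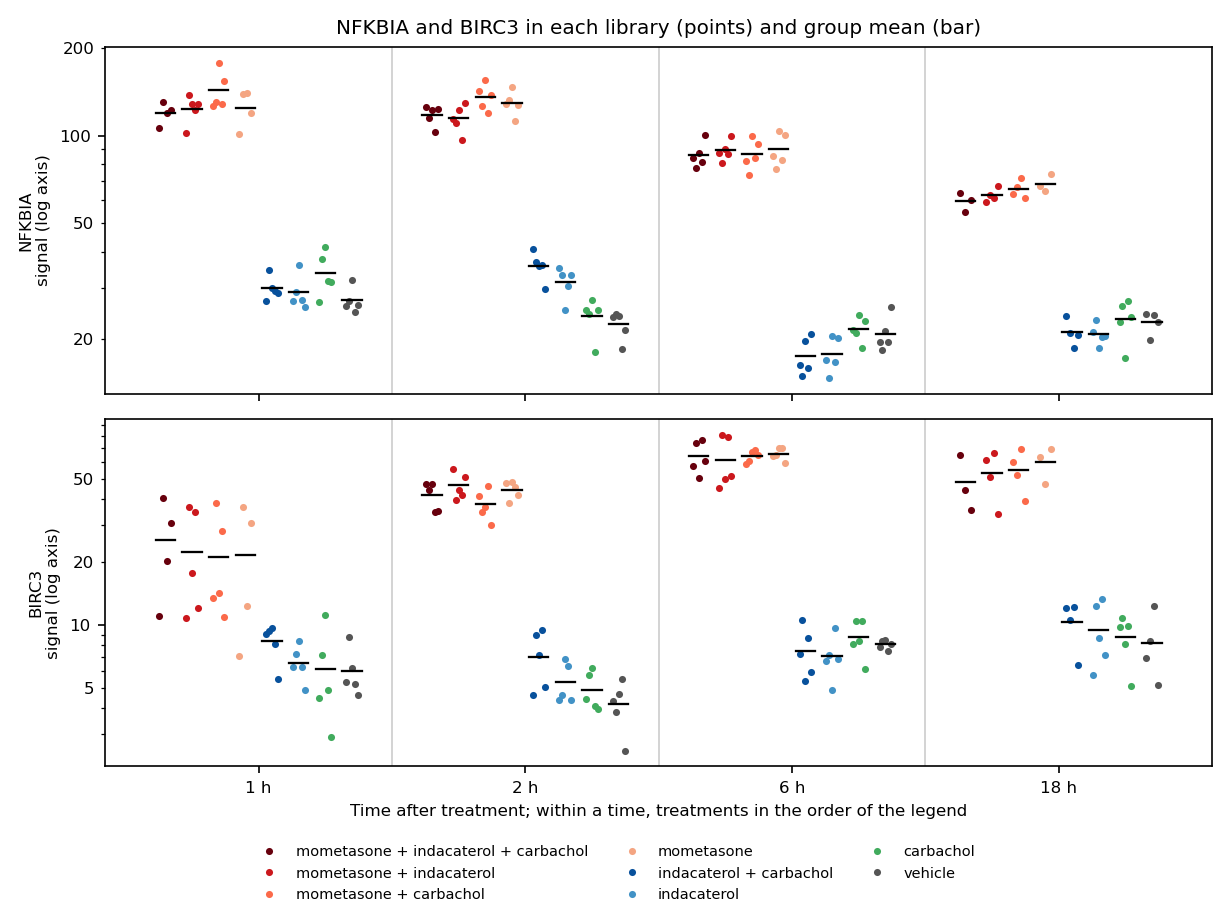
NFKBIA and BIRC3 signal (log axis) in each library, as points, with the group mean as a bar, for 8 treatments at 1, 2, 6 and 18 h. NFKBIA lay at 54.9 or more in all libraries with mometasone and at 41.4 or less in all others, and BIRC3 overlapped between these libraries at 1 h only.

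TNFAIP3, the ubiquitin-editing enzyme gene (ENSG00000118503, chromosome 6, 137867188 to 137883312, plus strand), rose early with mometasone and early with indacaterol. At 2 h it had 12.9, 21.2, 20.6, 14.9 and 7.10 in libraries with both agents, 3.26, 6.52, 6.41, 5.78 and 2.01 with mometasone, 1.90, 5.75, 7.48, 9.36 and 1.64 with indacaterol, and 2.36, 2.73, 4.80, 2.05 and 0.91 in vehicle. The combination lay above vehicle in every library, while each agent alone overlapped with vehicle. Adding indacaterol to mometasone raised TNFAIP3 by 1.5 ± 0.43 at 2 h (adjusted p 0.0191), and adding mometasone to indacaterol raised it by 1.51 ± 0.43 (adjusted p 0.0192). The first call was lost without any of replicates 1, 2, 3 and 4 (1.44 to 1.56, adjusted p 0.0521 to 0.156) and the second without replicate 1 or 2 (1.33 and 1.46, adjusted p 0.203 and 0.177) and without the libraries above 20% mitochondrial signal (1.29, adjusted p 0.111), each time still above 0.

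Over the 4 backgrounds, mometasone changed TNFAIP3 by 0.85 ± 0.22 at 1 h (adjusted p 0.00995) and 0.91 ± 0.22 at 2 h (0.00104), and it was higher with mometasone in 17 of 18 and 19 of 20 same-numbered pairs. Indacaterol changed it by 0.80 ± 0.22 at 1 h (0.0125) and 1.07 ± 0.22 at 2 h (4.60e-05). At 6 and 18 h the log2 changes were 0.37 ± 0.22 and 0.20 with mometasone and 0.09 and -0.11 with indacaterol, none of them called. The mometasone change at 6 h was higher in 16 of 20 same-numbered pairs. With replicate number as a block it was called (0.37, adjusted p 0.000516 against 0.188), though not every same-numbered pair deviated together there. With all 3 agents TNFAIP3 rose 3.5-fold at 1 h and 4.01-fold at 2 h over vehicle (adjusted p 0.00605 and 0.000238). Whether the pair did more than the sum of the 2 single log2 changes was tested as an interaction. At 2 h it was 0.81 ± 0.61 (95% interval -0.40 to 2.02, adjusted p 1). Over both carbachol backgrounds, a test chosen after the data were seen, the interaction at 2 h was 0.68 (adjusted p 0.714 by limma). With the block its adjusted p was 0.0102, though not every same-numbered pair deviated together there. A sum of log2 changes is a product of fold changes, and a sum on the signal scale was not tested. Without replicate 2, the mometasone call at 1 h was lost (0.89, adjusted p 0.101), and the indacaterol call at 1 h was lost without replicate 2 or 4 (0.74 and 0.72, adjusted p 0.233 and 0.198). An antisense gene, AL357060.1, overlaps TNFAIP3, and whether counting used strand is not given in the sources used here.

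NFKBIZ, the IκBζ gene (ENSG00000144802, chromosome 3, 101827991 to 101861022, plus strand), moved in opposite directions with the 2 agents over the 4 backgrounds. At 1 h it had 3.89, 2.82, 4.94, 2.94 and 1.22 with mometasone and indacaterol, 7.08, 7.95, 10.7, 7.74 and 3.73 with indacaterol, and 3.33, 4.53, 6.87, 4.39 and 1.34 in vehicle. Replicate 5 was the lowest library of each of these groups, and each of the 5 indacaterol libraries exceeded its same-numbered partner in both other groups. Against vehicle, the log2 changes of NFKBIZ at 1 h were -0.23 with mometasone, 0.78 with indacaterol and -0.26 with both. At 2 h they were -0.49, 0.80 and 0.13. Across the 4 backgrounds the mometasone change of NFKBIZ was -0.65 ± 0.16 at 1 h and -0.57 ± 0.16 at 2 h on the log2 scale (adjusted p 0.00534 and 0.00562), and it was lower in 17 of 18 and 17 of 20 same-numbered pairs. These calls were lost without replicate 4 (-0.59 and -0.47, adjusted p 0.143 and 0.156), and that at 1 h also without replicate 2 (-0.55, adjusted p 0.340).

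Indacaterol raised NFKBIZ at 2 h by 0.68 ± 0.16 over the 4 backgrounds (adjusted p 0.000399), higher in 20 of 20 same-numbered pairs. At 1 h the change was 0.46 ± 0.16 (adjusted p 0.0877). With replicate number as a block that change was called (adjusted p 4.87e-07), though not every same-numbered pair deviated together there. Mean NFKBIZ at 2 h was 4.06 with mometasone and indacaterol, 2.23 with mometasone, 7.13 with indacaterol and 3.59 in vehicle. Adding mometasone to indacaterol gave a log2 change of -1.03 ± 0.31 at 1 h (adjusted p 0.0915). Same-numbered libraries deviated together in that comparison, and with replicate number as a block its adjusted p was 2.75e-08. The NFKBIZ interaction of the 2 agents at 1 h over both carbachol backgrounds was -0.59 (adjusted p 0.332 by limma), in a test chosen after the data were seen. With the block its adjusted p was 0.00232, though not every same-numbered pair deviated together there.

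**Figure D2:**
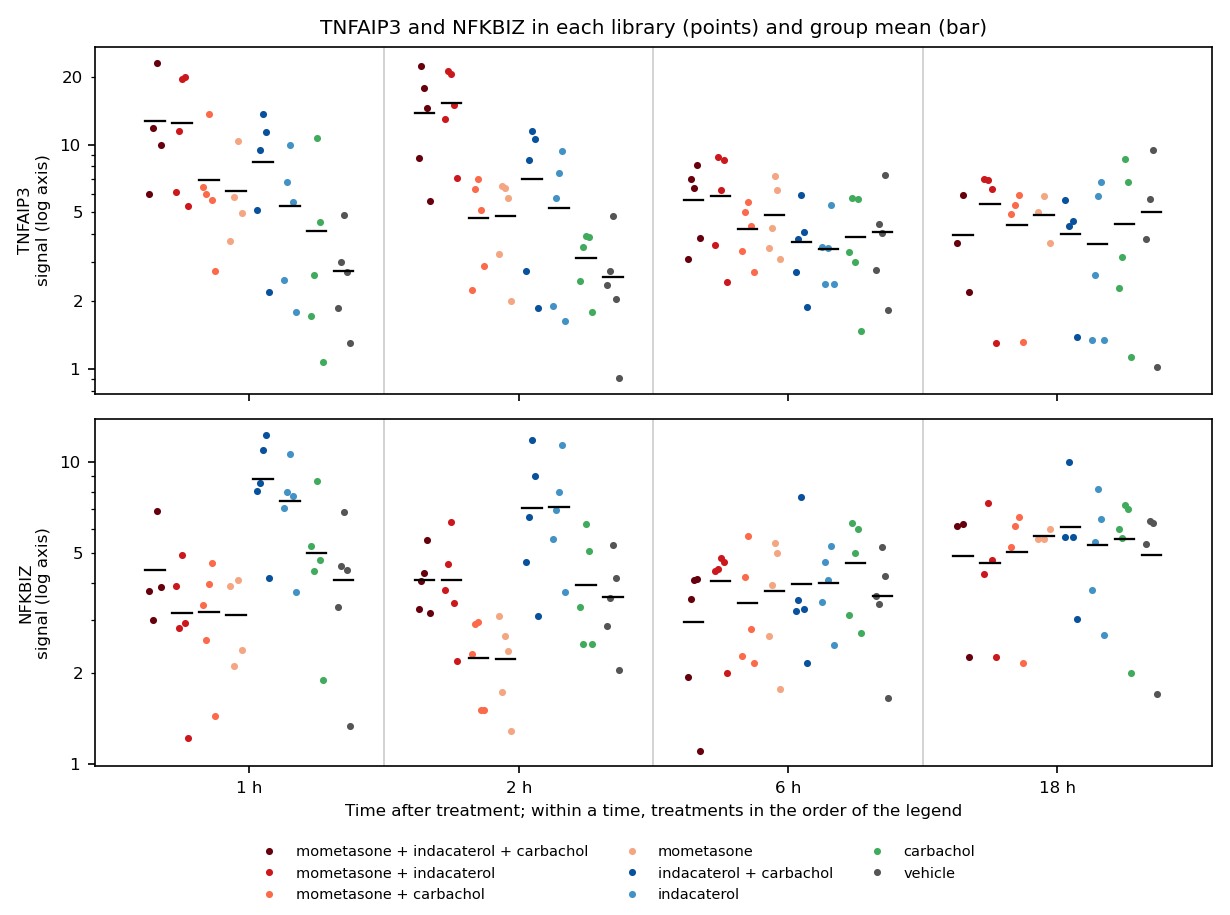
TNFAIP3 and NFKBIZ signal (log axis) in each library, as points, with the group mean as a bar, for 8 treatments at 1, 2, 6 and 18 h. At 2 h the highest TNFAIP3 means were those of mometasone with indacaterol (15.4) and all 3 agents (13.8), and the highest NFKBIZ means were those of indacaterol (7.13) and indacaterol with carbachol (7.04).

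NFKBIE, the IκBε gene (ENSG00000146232, chromosome 6, 44258166 to 44265788, minus strand), fell with mometasone from 2 h on. At 2 h it had 3.82, 5.03, 4.55, 4.41 and 6.71 with mometasone and indacaterol, against 14.6, 7.94, 5.42, 7.77 and 8.28 with indacaterol. The indacaterol replicate 1 library, with 27.7% mitochondrial signal, was the highest, and the groups overlapped. With mometasone over the 4 backgrounds, NFKBIE changed by -0.52 ± 0.10, -0.34 ± 0.10 and -0.41 ± 0.11 at 2, 6 and 18 h (adjusted p 1.60e-05, 0.00312 and 0.0017), and -0.18 at 1 h was not called. Indacaterol also lowered it at 2 h over the 4 backgrounds (-0.35 ± 0.10, adjusted p 0.00535). Without the libraries above 20% mitochondrial signal this change was -0.45 (adjusted p 0.000102). That call was lost without replicate 2 (-0.34, adjusted p 0.0615) or 3 (-0.30, adjusted p 0.0518). Against vehicle alone the indacaterol change at 2 h was -0.08, with NFKBIE higher in 2 of 5 same-numbered pairs, and on mometasone it was -0.40. NFKBIE was lowest where both agents met, with means of 5.14 for all 3 agents and 4.90 for mometasone with indacaterol, against 9.01 in vehicle at 2 h.

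NFKBIB, the IκBβ gene (ENSG00000104825, chromosome 19, 38899700 to 38908893, plus strand), had no call with any agent over the 4 backgrounds with all libraries and the values as deposited. Its changes lay between -0.11 and 0.22 with mometasone, and between 0.00 and 0.20 with indacaterol. The widest bounds of the 95% intervals were -0.27 and 0.40 with mometasone. The mometasone change at 18 h was called with values rescaled to equal library sums (0.27, adjusted p 0.00245) and without replicate 5 (0.21, 0.0237). The indacaterol change at 6 h was called in a fit of that time alone (0.20, adjusted p 0.0374) and without replicate 5 (0.22, 0.0105). In single contrasts whose same-numbered libraries deviated together, NFKBIB was called with replicate number as a block: with mometasone added to indacaterol at 18 h (0.25, adjusted p 0.0475 against 0.381 without the block), and with all 3 agents against vehicle at 6 h (0.27, 0.0110 against 0.311) and 18 h (0.30, 0.0284 against 0.376). NFKBIB overlaps SIRT2 on the opposite strand, and without a record of strand in the counting, reads of the 2 genes cannot be told apart.

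TNIP1, whose protein binds the TNFAIP3 enzyme (ENSG00000145901, chromosome 5, 151029945 to 151093577, minus strand), moved by small amounts. With mometasone over the 4 backgrounds it changed by 0.19 ± 0.06 at 2 h and 0.20 ± 0.06 at 6 h (adjusted p 0.0311 and 0.00679), higher in 16 of 20 and 19 of 20 same-numbered pairs. With indacaterol it changed by -0.18 ± 0.06 at 6 h (adjusted p 0.0408). The call at 2 h was lost without replicate 1, 2, 4 or 5, and the indacaterol call without any 1 of the 5 replicates, with changes of 0.19 in each of the first and of -0.15 to -0.20 in the second. Without libraries above 20% mitochondrial signal the 2 h change was 0.16 (adjusted p 0.0929). The call at 6 h was lost with values rescaled to equal library sums (0.14, adjusted p 0.232).

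RELB, the transactivating subunit of the non-canonical pathway (ENSG00000104856, chromosome 19, 45001430 to 45038198, plus strand), fell with mometasone from 2 h on. At 6 h it had 2.93, 3.69, 2.58, 4.03 and 4.09 with mometasone, against 6.99, 7.27, 4.62, 6.36 and 8.90 in vehicle, and the groups did not overlap. The RELB change over the 4 backgrounds was -0.43 ± 0.12 at 2 h, -0.58 ± 0.12 at 6 h and -0.57 ± 0.13 at 18 h (adjusted p 0.00634, 2.20e-05 and 0.0003), and -0.22 at 1 h was not called. RELB was lower in 18 of 20, 19 of 20 and 13 of 14 same-numbered pairs at those times. The 2 h call was lost without replicate 1 (-0.39, adjusted p 0.0695). Without the libraries above 20% mitochondrial signal it was only just kept (-0.35, adjusted p 0.0489). Against vehicle alone, the 6 h change was -0.80 ± 0.24 (adjusted p 0.0132), lost without replicate 1 or 2 (-0.74 and -0.80, adjusted p 0.0813 and 0.0890).

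NFKB2, the gene of the non-canonical precursor subunit (ENSG00000077150, chromosome 10, 102394110 to 102402529, plus strand), rose with indacaterol and fell with mometasone at 2 h. It had 47.3, 27.0, 19.8, 23.5 and 28.7 with indacaterol at 2 h, against 19.2, 15.7, 18.9, 12.5 and 21.0 in vehicle. Replicate 1 of indacaterol and of indacaterol with carbachol (60.8) were the highest NFKB2 values at 2 h, and these libraries had 27.7% and 28.3% mitochondrial signal, whose part in the result was not tested beyond leaving them out. The indacaterol change of NFKB2 over the 4 backgrounds was 0.56 ± 0.09 (adjusted p 5.97e-08), and 0.46 without libraries above 20% mitochondrial signal (adjusted p 9.57e-07). The mometasone change was -0.38 ± 0.09 (adjusted p 0.000507), lower in 16 of 20 same-numbered pairs. Both of these high libraries were among those without mometasone, and with the libraries above 20% mitochondrial signal left out the mometasone change was -0.28 (adjusted p 0.00789). NFKB1, the gene of the canonical precursor subunit (ENSG00000109320, chromosome 4, 102501329 to 102617302, plus strand), was not called in any comparison with all libraries, the values as deposited and no block, and its changes over the 4 backgrounds lay between -0.14 and 0.11 for the 3 agents.

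**Figure D3:**
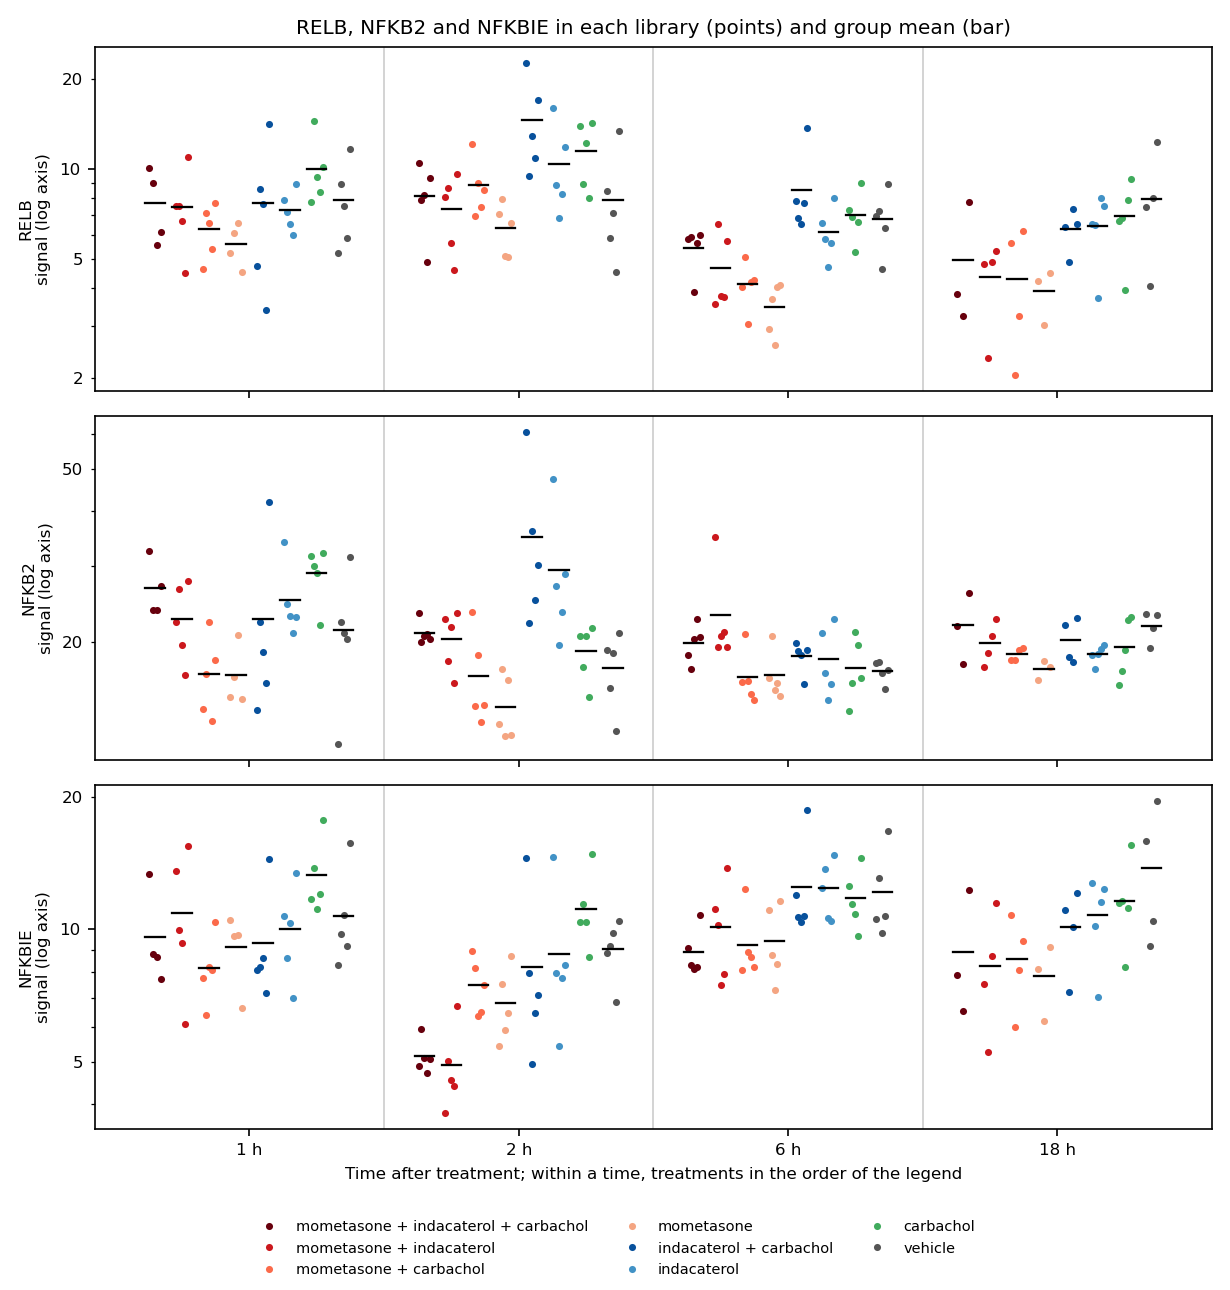
RELB, NFKB2 and NFKBIE signal (log axis) in each library, as points, with the group mean as a bar, for 8 treatments at 1, 2, 6 and 18 h. RELB is lower in the libraries with mometasone at 6 h (2.58 to 6.54, against 4.62 to 13.7 without it), and at 2 h NFKB2 is highest in indacaterol with carbachol and in indacaterol.

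Against vehicle alone, mometasone changed 2 members at 1 h and 2 at 2 h, all higher, and 3 at 6 h and 3 at 18 h, 2 higher and 1 lower each. Of all genes 0.472%, 1.99%, 9.61% and 9.1% were called. NFKBIA and BIRC3 were the 2 that rose at each time, RELB fell at 6 h, and NFKBIE fell at 18 h (-0.70 ± 0.24, adjusted p 0.0419, lost without replicate 2, 3 or 5). NFKBIE at 18 h had 8.12, 6.19 and 9.14 with mometasone, against 15.9, 9.15, 10.5 and 19.6 in vehicle. Same-numbered libraries deviated together at 1 and 2 h, and with replicate number as a block 3 more members were called at 2 h: TNFAIP3 (0.70, adjusted p 0.00999), NFKBIZ (-0.49, 0.0255) and TNIP1 (0.31, 0.00124), with adjusted p of 1, 1 and 0.415 without the block.

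Added to indacaterol, mometasone changed 2, 4, 2 and 2 members at 1, 2, 6 and 18 h, and 1.14%, 4.16%, 11.5% and 10.5% of all genes. NFKBIA rose by 2.06, 1.84, 2.27 and 1.55 and BIRC3 by 1.46, 2.91, 2.93 and 2.39 at those times, and at 2 h TNFAIP3 also rose and NFKBIE fell (-0.69 ± 0.20, adjusted p 0.0190). The NFKBIE call was lost without replicate 1 (-0.44, adjusted p 0.588), 2 (-0.72, 0.114) or 4 (-0.69, 0.0874), and without the libraries above 20% mitochondrial signal (-0.50, 0.195). With the block, TNFAIP3 at 1 h (1.09, adjusted p 9.85e-06 against 0.559 without it) and RELB at 18 h (-0.48, 0.0142 against 0.248) were called as well.

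Indacaterol over the 4 backgrounds changed 1 member at 1 h, 5 at 2 h (4 higher, 1 lower), 1 at 6 h and none at 18 h, where 4.51%, 13.5%, 13.1% and 1.6% of all genes were called. At 18 h 1 of 10 members had an unadjusted p under 0.05 by limma. Against vehicle alone 2 members were called, both at 2 h, where 3.91% of all genes were called, and none at 1, 6 or 18 h, where 1.4%, 1.74% and 0.202% were and where 2 of the 30 member changes had an unadjusted p under 0.05 by limma. These 2 were NFKBIA (0.47 ± 0.11, adjusted p 0.00105) and NFKB2 (0.67 ± 0.17, adjusted p 0.00684). The NFKBIA call was lost with values rescaled to equal library sums (0.34, adjusted p 0.282) and with the compared groups fitted alone (0.47, 0.0984). The NFKB2 call was lost without replicate 2 (0.65, adjusted p 0.0876) or 4 (0.62, 0.0779), and without libraries above 20% mitochondrial signal (0.49, 0.0802). Same-numbered libraries deviated together at 2 h, and with the block NFKBIZ (0.80, adjusted p 1.11e-05 against 0.205) and TNFAIP3 (0.68, 0.00777 against 0.770) were called too. Added to mometasone, indacaterol changed 1 member, TNFAIP3 at 2 h, where 4.73% of all genes were called, and none at 1, 6 and 18 h, where 1.44%, 3.14% and 0.175% were and where, by limma, 2 of 30 had an unadjusted p under 0.05. With the block TNFAIP3 was called at 1 h too (1.05, adjusted p 8.25e-05, against 0.81 and 0.951 without it). There not every same-numbered pair passed the 0.1 limit for pairing (lowest r 0.0992).

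The indacaterol change of NFKBIA at 2 h had opposite signs with and without mometasone, at -0.18 on mometasone and -0.20 on mometasone with carbachol, against 0.47 on vehicle and 0.56 on carbachol. The means at 2 h were 31.5 with indacaterol and 22.5 in vehicle, and 115 with mometasone and indacaterol and 130.0 with mometasone. Beside carbachol they were 35.8 for indacaterol with carbachol and 24.0 for carbachol, and 118 for all 3 agents and 136.5 for mometasone with carbachol. The interaction of mometasone and indacaterol at 2 h was -0.64 ± 0.15 without carbachol (adjusted p 0.0128). It was the 1 call among the 40 member interactions, and by limma also the 1 with an unadjusted p under 0.05, where 0.0742%, 0.405%, 0.216% and 0.0674% of all genes were called at 1, 2, 6 and 18 h. Taken over both carbachol backgrounds, a test chosen after the data were seen, it was -0.71 ± 0.11 (adjusted p 4.27e-07, where 1.17% of all genes were called). The call without carbachol was lost when replicate 1, 2, 4 or 5 was left out (-0.58 to -0.66, adjusted p 0.0561 to 0.251), and that over both backgrounds was kept each time. Over the 4 backgrounds the indacaterol change of NFKBIA was 0.16 ± 0.05 (adjusted p 0.0237), an average of the 2 directions, and it was lost without replicate 1, 2, 4 or 5 (0.13 to 0.16), with values rescaled to equal library sums (0.08, adjusted p 0.582), under median-ratio scaling (0.15, 0.0717) and without libraries above 20% mitochondrial signal (0.14, 0.0690).

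Carbachol called no member at any time, against vehicle or over the 4 backgrounds. By limma, 3 of 40 member changes against vehicle and 2 of 40 over the backgrounds had an unadjusted p under 0.05. Against vehicle 0.0809%, 0.027%, 0% and 0.00674% of all genes were called at 1, 2, 6 and 18 h, and over the backgrounds 0.189%, 0.121%, 0% and 0%. The largest member change over the backgrounds was RELB at 2 h, at 0.38 ± 0.12 (95% interval 0.15 to 0.62, adjusted p 0.474), and RELB was the higher of the pair with carbachol in 17 of 20 pairs of one replicate number. Against vehicle alone it was 0.53 ± 0.24 at 2 h (adjusted p 1), higher in 5 of 5 pairs. The RELB means at 2 h were 11.5 with carbachol and 7.89 in vehicle, and 14.6 with indacaterol and carbachol and 10.4 with indacaterol. All intervals of the 10 members lay between -0.59 and 0.67.

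**Figure D4:**
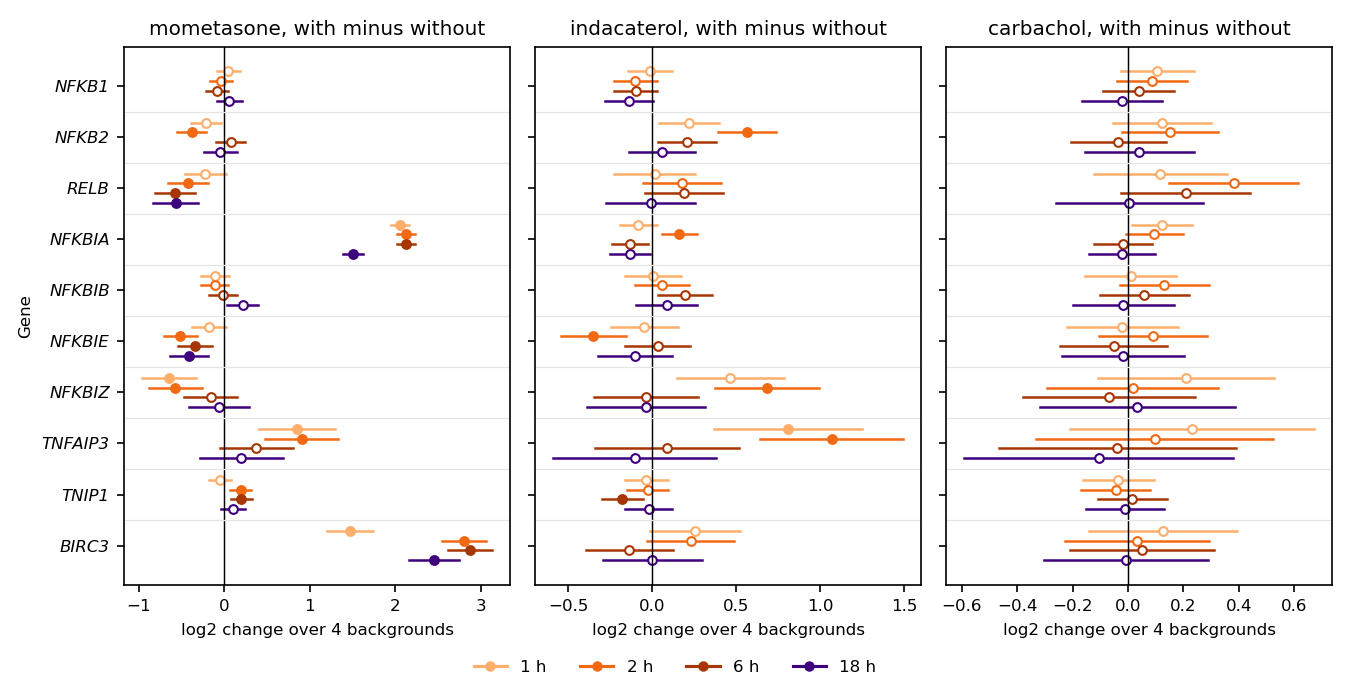
Log2 change of each member with minus without mometasone, indacaterol and carbachol over the 4 backgrounds, at 1, 2, 6 and 18 h, with 95% intervals as lines and filled points for an adjusted p under 0.05. The 3 panels have different scales. With mometasone NFKBIA and BIRC3 lie between 1.47 and 2.88 and RELB and NFKBIE below 0 at every time, and with carbachol no point is filled.

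With all 3 agents against vehicle, 3, 4, 2 and 2 members were called at 1, 2, 6 and 18 h, beside 3.15%, 8.06%, 15.2% and 10.8% of all genes. NFKBIA rose by 2.10, 2.35, 2.00 and 1.35, and BIRC3 by 1.81, 3.06, 2.82 and 2.44. TNFAIP3 rose at 1 and 2 h, as given above. At 1 h it had 6.05, 11.9, 23.1 and 9.98 in replicates 1 to 4, against 1.87, 2.99, 4.87, 2.70 and 1.30 in vehicle replicates 1 to 5, and the groups did not overlap. Vehicle replicate 5, the lowest of these, had no partner with all 3 agents. That 1 h call was kept without replicate 5 and lost without replicate 2 (1.83, adjusted p 0.0948). NFKBIE fell at 2 h (-0.70 ± 0.20, adjusted p 0.00925, lost without replicate 2 at -0.73, adjusted p 0.0593). Same-numbered libraries deviated together at 2, 6 and 18 h, and with the block NFKBIE was also called at 6 h (-0.40, adjusted p 0.0131 against 0.191) and 18 h (-0.56, 0.00409 against 0.125), and RELB at 18 h (-0.54, 0.0125 against 0.224).

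In vehicle no member was called at 2, 6 or 18 h against 1 h, where 0.0135%, 0.324% and 0.121% of all genes were, and by limma 7 of the 30 member changes had an unadjusted p under 0.05. NFKB1 changed by 0.45 at 6 h (adjusted p 0.0985), and under median-ratio scaling this was called (0.45, adjusted p 0.0301). NFKBIA in vehicle was 27.2 ± 2.78 at 1 h, 22.5 ± 2.52 at 2 h, 20.9 ± 2.90 at 6 h and 22.9 ± 2.13 at 18 h (SD, n = 5, 5, 5 and 4). BIRC3 was 6.02 ± 1.62, 4.18 ± 1.11, 8.07 ± 0.418 and 8.22 ± 3.07 at those times.

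Other genes of the pathway moved in both directions with mometasone over the 4 backgrounds, where 2.64%, 8.58%, 33% and 31.5% of all genes were called at 1, 2, 6 and 18 h. Of 8 further subunit, IκB-like and kinase genes, 0 rose and 3 fell at 1 h, 1 rose and 3 fell at 2 h and at 6 h, and 2 rose and 2 fell at 18 h, so the called share at 6 and 18 h was not far from that of all genes. BCL3, a nuclear IκB-like protein gene, changed most, by -1.22, -1.82, -1.07 and -0.59 on the log2 scale, and MAP3K14, the kinase of the non-canonical pathway, changed by -0.26, -0.61, -0.65 and -0.42. NFKBID, another IκB-like gene, changed by -0.52 and -0.75 at 1 and 2 h. Their median change was -0.01, -0.07, -0.02 and 0.09, against 0.01, 0.00, 0.02 and 0.05 for all genes.

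Of 14 receptor, adaptor and kinase genes upstream of IKK, 13 were tested, and with mometasone 0, 1, 3 and 4 rose and 0, 0, 4 and 2 fell at 1, 2, 6 and 18 h, most of them at the times when 33% and 31.5% of all genes were called. TRAF3, which restrains MAP3K14, changed by -0.60 at 6 h and -0.61 at 18 h, IRAK4, a kinase of interleukin-1 receptor signalling, by 0.73 at 18 h, IRAK1, another such kinase, by -0.25 at 6 h and -0.40 at 18 h, and TNFRSF1A, a TNF receptor, by 0.20 at 2 h and 0.24 at 6 h. Of 11 further brakes, 9 were tested, and 0, 1, 4 and 4 rose and 0, 0, 2 and 1 fell. BIRC2, the neighbour and relative of BIRC3, changed by 0.30, 0.54 and 0.46 at 2, 6 and 18 h, TRAF1, a TNF receptor adaptor, by 0.33 and 0.55 at 6 and 18 h, CYLD, a deubiquitinase, by -0.61 at 6 h, and TAX1BP1, an adaptor of the TNFAIP3 enzyme, by -0.49 at 6 h.

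Of 18 known NF-κB target genes, 11 were tested, and with mometasone 3, 2, 2 and 3 rose and 2, 4, 5 and 4 fell, beside 2.64%, 8.58%, 33% and 31.5% of all genes called in either direction. CCL2, a monocyte chemokine, changed by -0.61, -1.98, -3.13 and -2.48, and IER3, an early-response survival gene, by -1.72, -1.91, -2.26 and -1.61. IRF1, a transcription factor of interferon responses, changed by -0.89 at 6 h. PTGS2, the inducible cyclooxygenase gene, went the other way, at 0.69, 0.69, 0.60 and 0.36. The target list's median was 0.01, -0.08, -0.16 and -0.09.

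The same lists were counted with indacaterol over the 4 backgrounds, where 4.51%, 13.5%, 13.1% and 1.6% of all genes were called at 1, 2, 6 and 18 h. BCL3 changed by 1.04 and 1.51 at 1 and 2 h, NFKBID by 0.39 and 0.48, REL, another subunit gene, by 0.60 at 2 h, and MAP3K14 by -0.51 and -0.45 at 2 and 6 h. In the subunit and kinase list 2, 3, 0 and 1 rose and 0, 1, 1 and 0 fell. Among the brakes 1, 2, 0 and 0 rose and 0, 0, 1 and 0 fell, with ZC3H12A, an RNase that destroys inflammatory transcripts, at 0.78 and 0.77 at 1 and 2 h. Among the targets 4, 5, 4 and 2 rose and 0, 0, 1 and 0 fell, with CXCL2, a neutrophil chemokine, at 2.57 and 1.63 at 1 and 2 h and CCL2 at 0.76, 1.52, 0.91 and 0.73. Upstream, 0, 1, 0 and 0 rose and 0, 2, 0 and 0 fell. With carbachol BCL3 (0.59 at 2 h, adjusted p 0.0152) and IRF1 (0.41 at 2 h, adjusted p 0.000706) were the list genes called.

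The profile of each member was also compared with that of every other tested gene over the 32 group means, centred within each time. The genes most like NFKBIA were FOXC2 (r = 0.981), ZFP36 (0.979) and TENT5B (0.973), and those most like BIRC3 were TSC22D3 (0.984), RGCC (0.979) and GCNT1 (0.975). For TNFAIP3 they were SHROOM2 (0.943), EDN1 (0.940) and TOB2 (0.939), and for NFKBIZ they were CBX8 (0.911), ZNF620 (0.909) and CDKN2AIP (0.890). Among the members, NFKBIA and BIRC3 had r = 0.958, RELB and NFKBIE 0.721, and NFKBIE with BIRC3 -0.829, while TNFAIP3 and NFKBIZ had -0.0021. All of these r are descriptions over the same 32 group means, which share libraries.

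Several members also differed by replicate number within a group. TNFAIP3, NFKBIZ and NFKB1 lay below their group mean in 29 of 29 replicate 5 libraries, by means of -0.85, -0.70 and -0.23 on the log2 scale. NFKBIB lay above it in 29 of 29 (0.33) and RELB in 28 of 29 (0.35) of the same libraries. In replicate 3, TNFAIP3 and NFKBIZ lay above the group mean in 31 of 32 libraries (0.57 and 0.45). For TNFAIP3 and NFKBIZ these offsets were about as large as the treatment changes over the 4 backgrounds, while for NFKBIA no replicate number deviated by more than 0.08 on average. What the replicate number stands for is not in the labels.

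**Figure D5:**
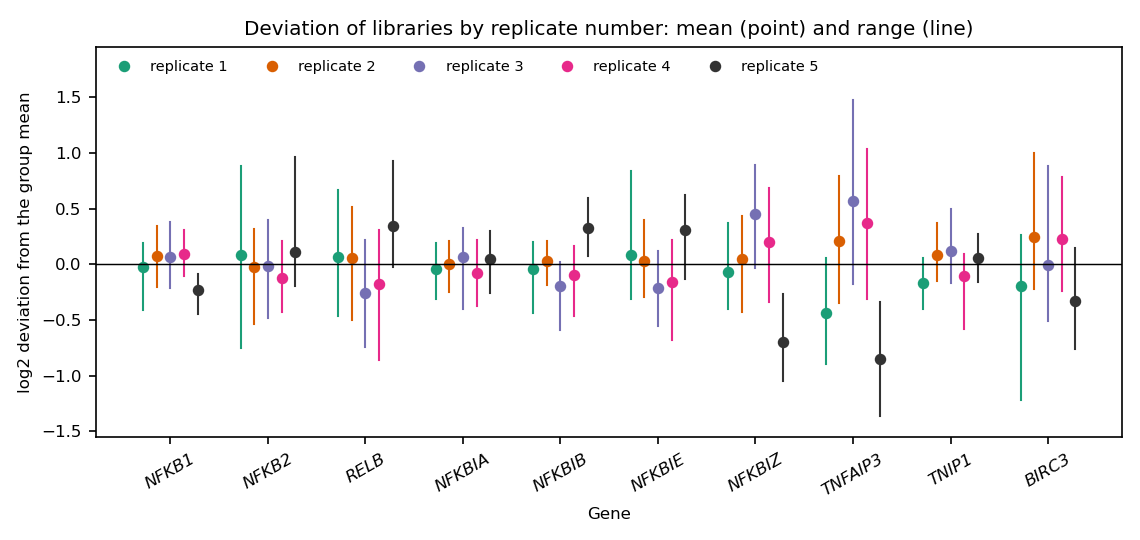
Log2 deviation of libraries from their group mean, by replicate number, for each member, with the mean over libraries as a point and the range as a line. Replicate 5 lies lowest for TNFAIP3 (mean -0.85) and NFKBIZ (-0.70), and the points of NFKBIA lie within 0.08 of 0.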

How the data were processed

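RNA sequencing of total RNA gave 1 value per gene and library. Per the submitters' processing notes, reads passed through bcl2fastq 2.17.1.14 and STAR 2.4.2a with GRCh38. Which tool quantified expression, with which annotation and strand setting, was not given in the sources used here. As for units, the authors deposited the values as TPM, but their library sums ran from 847289 to 1498420, so they were treated as a normalised signal of unknown scaling, and levels were not compared between genes. A test for TPM values on the log scale had been planned and was kept. The depth is unknown, so no counting intervals are given. The columns of 10 samples were not used: 6 were headed 8 h, a time absent from the sample labels, and 4 held no values.

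Values were taken as log2(value + 1). Genes at 1 or more in at least 5 libraries were tested (14827). A limma 3.58.1 model (R 4.3.3) with 1 coefficient for each of 32 groups and 118 residual degrees of freedom used empirical Bayes moderation with a trend, and was tested on simulated data. Python 3.11.15 with pandas 2.3.3 did the rest. An agent's change over 4 backgrounds is the mean difference over the 4 pairs of groups that differ by that agent alone. Same-numbered libraries were taken as paired where every pair's deviations from the group means correlated above 0.1, which held in 12 of 53 comparisons and times, from the data and not the labels. All 10 members are named, and other pathway genes only with their counts. The members and lists were chosen with earlier results of these data known, so the members' share of calls and the lists' directions are not independent evidence. Gene positions follow GENCODE 29 on GRCh38.

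Alternatives were another scaling, a rescaling to equal sums, another pseudocount, no filter, smaller fits, a replicate block, each replicate left out, and the libraries above 20% mitochondrial signal left out.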

Additional observations from a re-analysis of the deposited data

Results flagged for a closer look

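Of 300 groups of 4 or 5 libraries, counted per member, 16 held a library far from the others. For independent, normally spread values the rule would flag about 1 in 20 groups. The members share libraries and have offsets by replicate number, so that share is no measure for these 16, and the part of chance in them was not tested. NFKB2 had 5 of these, each a highest library: 23.3 in replicate 1 of all 3 agents at 2 h, 34.9 in replicate 1 of mometasone with indacaterol at 6 h, 20.9 in replicate 2 of mometasone with carbachol at 6 h, 20.7 in replicate 2 of mometasone at 6 h, and 34.0 in replicate 1 of indacaterol at 1 h. Replicate 1 of mometasone with indacaterol at 6 h had 28.0% mitochondrial signal and that of indacaterol at 1 h had 21.3%.

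Replicate 5 stood apart as the highest library for RELB in indacaterol with carbachol at 6 h (13.7), for NFKBIB in mometasone at 2 h (23.9) and in vehicle at 1 h (28.3), and for NFKBIE in indacaterol with carbachol at 1 h (14.5) and 6 h (18.7). In mometasone with indacaterol it was the lowest for NFKB1 at 2 h (6.79), for NFKBIZ at 6 h (2) and for TNFAIP3 at 18 h (1.31). Replicate 3 was the lowest for RELB with all 3 agents at 6 h (3.88) and the highest for NFKBIZ in indacaterol with carbachol at 6 h (7.66). NFKBIE was highest in replicate 2 of mometasone with carbachol at 6 h (12.3).

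The mometasone change differed with and without indacaterol for NFKBIA at 2 h, by -0.64 without carbachol and by -0.71 over both carbachol backgrounds (log2). It also differed between times. Against 1 h it was larger for BIRC3 by 1.34 at 2 h, 1.41 at 6 h and 0.98 at 18 h, larger for TNIP1 by 0.25 at 6 h (adjusted p 0.0366 by limma, lost without replicate 1, 2, 4 or 5) and smaller for NFKBIA at 18 h (-0.55).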

How the results depend on the processing

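Of 69 calls on members, 46 were kept under every alternative in which they were computed and none changed direction. These calls come from overlapping comparisons that share libraries. Most of those kept were on NFKBIA and BIRC3, while most calls on the other members were lost under some alternative. Counts below are member-by-time calls, by limma. Values divided by the median ratio gave 1 call for vehicle over time (NFKB1 at 6 h), against 0 as reported. Values rescaled to equal library sums gave 1 for indacaterol against vehicle (2 as reported), 0 for the interaction of mometasone and indacaterol (1) and 4 for indacaterol over 4 backgrounds (7); the NFKBIA interaction was then -0.49 (adjusted p 0.933), and the median of all genes moved by -0.183 to 0.187, beyond 0.1 in 12 of 53 comparisons and times. Under this rescaling, members over 4 backgrounds split 11 higher and 7 lower with mometasone (12 and 9 as reported) and 3 higher and 1 lower with indacaterol (5 and 2). Each time fitted alone gave 1 for indacaterol against vehicle. Compared groups alone gave 0 for that comparison and 0 for the interaction. Without libraries above 20% mitochondrial signal, indacaterol against vehicle gave 1 and indacaterol added to mometasone 2 (1 as reported).

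With replicate number as a block within time, the calls were 16 for mometasone against vehicle (10 as reported), 7 for indacaterol against vehicle, 1 for carbachol against vehicle (0), 6 for indacaterol added to mometasone, 18 for mometasone added to indacaterol (10), 14 for indacaterol over 4 backgrounds, 1 for carbachol over 4 backgrounds (0; RELB at 2 h, 0.38, adjusted p 0.000313) and 8 for the interaction over both carbachol backgrounds (1). A block shared by all times gave 2 for vehicle over time (NFKB1, adjusted p 0.00163, and NFKBIA, 0.0172, both at 6 h). Outside the 12 paired comparisons and times the rule for pairing was not met. That rule asks every pair to pass, and the pooled comparisons held up to 571 pairs. Over all 53 comparisons and times, correlations of the deviations ran from -0.541 to 0.865, and the median of their medians was 0.282. Failing the rule therefore does not show that same-numbered libraries varied independently. Leaving out each replicate gave 1 to 3 calls for indacaterol against vehicle, 0 to 1 for indacaterol added to mometasone, 0 to 1 for the interaction, 3 to 7 for indacaterol over 4 backgrounds, 18 to 21 for mometasone over 4 backgrounds and 8 to 9 for mometasone against vehicle. Single calls were also lost for NFKBIZ with mometasone over 4 backgrounds at 1 and 2 h (adjusted p 0.0576 and 0.0539) and TNFAIP3 with indacaterol added to mometasone at 2 h (0.0561) after rescaling, for BIRC3 with mometasone at 1 h against vehicle (0.294) and on indacaterol (0.0765) and TNFAIP3 with mometasone (0.0584) and indacaterol (0.0602) over 4 backgrounds at 1 h with that time fitted alone, and for NFKBIE with mometasone against vehicle at 18 h under median-ratio scaling (0.0510) and with no filter (0.0703). Fits of each time alone and blocks within time give no change over time. The cause of these differences was not tested. The depth is unknown, so how far it limits each member cannot be given.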
